A study of Homo sapiens with 12 samples.

Results

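The genes described here are the BCL2 family and a death receptor tied to endoplasmic reticulum (ER) stress, *BCL2*, *BCL2L1*, *MCL1*, *BCL2L11*, *BBC3*, *PMAIP1*, *BAX*, *BAK1*, *BID* and *TNFRSF10B*. They were chosen by symbol, and all 10 were found among the 23292 symbols listed in each of 3 deposited tables. RNA came from HEK293T cells, a human embryonic kidney line that is widely used because it grows and transfects readily, given DMSO vehicle, AA263, AA263yne or AA263-5, each compound at 10 µM, for 6 h. Each of the 4 groups held 3 samples, 12 samples in all, and the cells were labelled WT in every group. AA263 is a phenylhydrazone that the study examined for activation of the ER stress sensor ATF6, and the other 2 compounds are its analogs. Only 1 kind of value was used, the authors' mean normalized value of a gene over all samples, so the levels below belong to treated and vehicle cells together. Differences between the compounds and vehicle are not given here. The labels do not name the passage or culture dish that each of the 3 samples of a group came from.

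BCL2 family proteins decide whether the outer mitochondrial membrane stays sealed. Prosurvival members hold the pore-forming effectors BAX and BAK in check, and BH3-only members set the effectors free by binding to the prosurvival proteins or to the effectors themselves. During unresolved ER stress, the PERK arm of the unfolded protein response raises the transcription factor CHOP, which is known to act on several of these genes and on the death receptor DR5. These statements are background, and none was tested here.

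The mean normalized values are scaled by a size factor for each sample. The study's methods name a length-scaled unit as the input of that step, but the size of the values does not match such a unit, so they were treated here as not scaled by length. Every level per kilobase below rests on this reading. The values were identical in the 3 tables, with a largest difference of 0 for any symbol, which means that all groups were normalized together. They summed to 36.6 M over all symbols. The median symbol had a mean normalized value of 99.7, and the upper quartile began at 1060.0. The 10 genes had a median of 985 and together made up 0.0307% of the sum. Of these, 9 lay above the median symbol, 5 above the upper quartile, and 10 at or above a mean normalized value of 10. Of all 23292 symbols, 67.1% reached 10 and 11642 reached 100, which is the background of the counts at these levels below. Because the values are pooled, they carry no spread between samples, and neither a test nor an interval could be given for any order below. In bulk RNA a low value in every cell and a high value in few cells cannot be told apart.

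**Figure D1:**
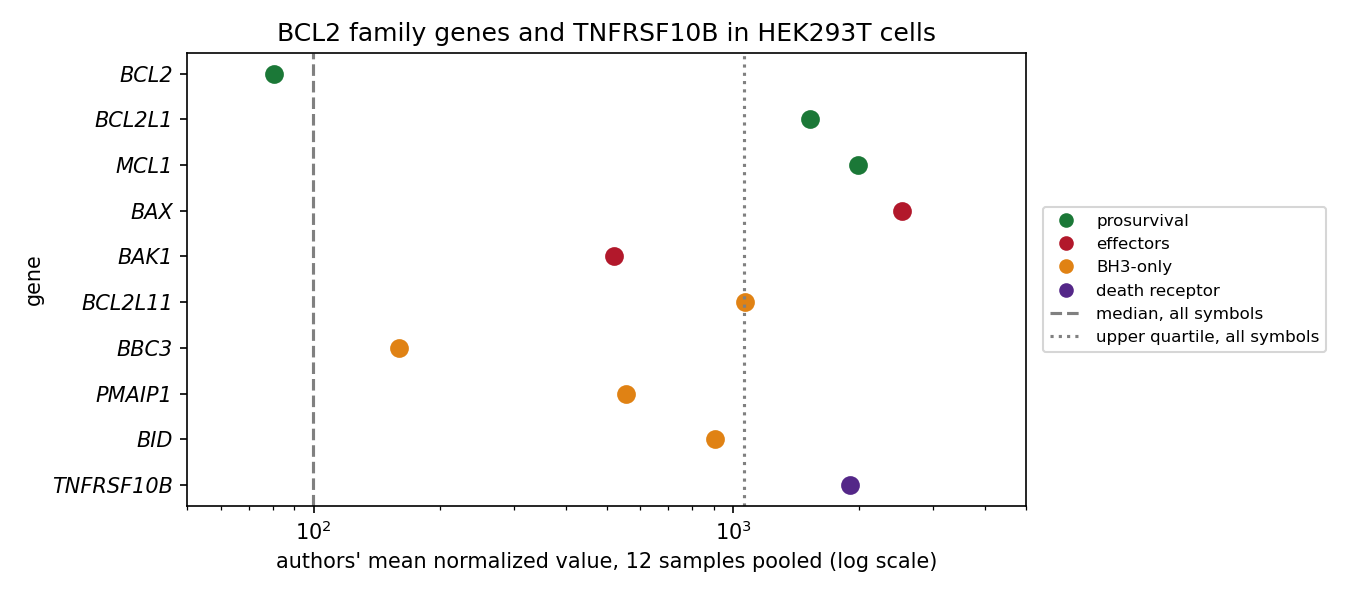
The authors' mean normalized value (x axis, log scale, no unit beyond normalized signal) for each of the 10 genes (y axis), with 1 point for each gene, coloured by role, pooled over 12 samples and hence without error bars. *BAX* was highest at 2532 and *BCL2* lowest at 80.5, the single gene left of the dashed line that marks the median of all symbols.

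The label HEK293T was checked with markers. The 7 genes listed for this line, which carries neuronal intermediate filaments and GATA factors, ran from 27.7 for *PAX2* to 3786 for *NEFM* in mean normalized value, and 5 of 7 reached 100, while *PAX2* and *LHX1* (85.8) lay below the median symbol. Of 11 markers of lymphocytes, hepatocytes, muscle, endothelium and macrophages, 10 were listed (*MYH7* was not analysed here), and their median was 3.04. The endothelial marker *CDH5* had 0.321 and the leukocyte marker *PTPRC* 0.544. The highest of them was *CD68*, a lysosomal protein that many cell types make, at 203.

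Among the prosurvival genes, *MCL1* and *BCL2L1* were abundant and *BCL2* was scarce. *MCL1*, which encodes a short-lived guard of the mitochondrial membrane, had a mean normalized value of 1983 and stood above 83.9% of all symbols. *BCL2L1*, the gene of BCL-XL, had 1526 and stood above 80.2%. *BCL2*, the founding member of the family, had 80.5 and stood above 48.4%.
The value of *MCL1* was 24.6 times that of *BCL2* before any length was considered. The gap between *BCL2L1* and *BCL2* was 19.0-fold on the same scale. Per kilobase of coding sequence the ratios were 16.8 and 19.4, and per kilobase of transcript they were 42.9 and 50.7. The canonical *BCL2* transcript of GENCODE 44 spans 6881 bases in 3 exons, of which 717 bases (10.4%) are coding. It lies on chromosome 18 of GRCh38 from 63123346 to 63320128 on the minus strand.
*MCL1* and *BCL2L1* changed places with the scale. *MCL1* was 1.30 times as high as *BCL2L1* in mean normalized value, but the ratio was 0.865 per kilobase of coding sequence and 0.847 per kilobase of transcript. *MCL1* lies on chromosome 1 from 150560895 to 150579738 with 3 exons in its canonical transcript of 3950 bases. Its exons share 328 bases, or 5.27% of their merged length, with *ADAMTSL4-AS1* on the same strand, which had a mean normalized value of 0.685. *BCL2L1* lies on chromosome 20 from 31664452 to 31723989, also with 3 exons, in a transcript of 2574 bases. The exons of *BCL2L1* share 1735 bases, or 41.3% of their merged length, with the antisense RNA *ABALON*, which had a mean normalized value of 269. Whether the authors' counting used the strand is not stated, so reads of the shared stretch could have gone to either gene.

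The effectors were unequal. *BAX*, whose product moves from the cytosol to the mitochondrion when activated, had the highest mean normalized value of the 10 genes at 2532, above 87.0% of all symbols. *BAK1*, whose product sits in the outer mitochondrial membrane already, had 522, above 65.3%. The ratio of *BAX* to *BAK1* was 4.85 in mean normalized value, 5.33 per kilobase of coding sequence and 13.2 per kilobase of transcript. The canonical *BAX* transcript has 795 bases and was longer than 3.12% of the transcripts compared, and that of *BAK1* has 2170. With the merged exons of all annotated transcripts as the length it was 4.15.
*BAX* lies on chromosome 19 from 48954815 to 48961798 and *BAK1* on chromosome 6 from 33572547 to 33580293, each with 6 exons. Processed copies of *BAK1*, *BAK1P1* and *BAK1P2*, are annotated but not among the listed symbols, and reads from near-identical copies may have been assigned to either.

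The BH3-only genes ran from 160 to 1067 in mean normalized value. *BCL2L11*, the gene of BIM, which binds all prosurvival proteins, was highest at 1067. *BID*, which caspase-8 cleaves to carry a death receptor signal to mitochondria, had 903. *PMAIP1*, the gene of NOXA, which binds MCL1 in particular, had 557. *BBC3*, the gene of the p53 target PUMA, was lowest at 160.0. The order of these 4 genes turned on the length. Per kilobase of coding sequence, *PMAIP1* came first with 3440, followed by *BCL2L11* with 1796, *BID* with 1544 and *BBC3* with 276. Per kilobase of transcript, *BID* came first with 415, then *PMAIP1* with 293, *BCL2L11* with 209 and *BBC3* with 86.7. *BBC3* was last on every scale.
The coding part takes 162 bases of the 1899-base *PMAIP1* transcript (8.53%) and 594 bases of the 5098-base *BCL2L11* transcript (11.7%). For *BID* it is 585 of 2177 bases (26.9%) and for *BBC3* 579 of 1846 bases (31.4%). *PMAIP1* had 2 exons on chromosome 18 from 59899996 to 59904305, and *BCL2L11* had 4 on chromosome 2 from 111119378 to 111168444. *BID* had 6 on chromosome 22 from 17734138 to 17774770, and *BBC3* had 4 on chromosome 19 from 47220822 to 47232766. Exons of *BCL2L11* share 727 bases with the antisense *MIR4435-2HG*, which had a mean normalized value of 186.

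*TNFRSF10B*, which encodes the TRAIL receptor DR5 and so starts the extrinsic path to caspase-8, had a mean normalized value of 1896, the third highest of the 10 genes and above 83.4% of all symbols. It lies on chromosome 8 from 23020133 to 23069031 with 9 exons in a transcript of 3998 bases. Its exons share 377 bases, 7.52% of their merged length, with the antisense-strand gene *RHOBTB2* (mean normalized value 267). Among the other TRAIL receptors, the decoy gene *TNFRSF10D* had 295 and the decoy gene *TNFRSF10C* had 8.19. The TRAIL receptor gene *TNFRSF10A* was not analysed here, so *TNFRSF10B* could not be set against it. Per kilobase of transcript, *TNFRSF10B* was 5.69 times as high as *TNFRSF10D* and 8.06 times as high as the death receptor gene *FAS*, and with merged exons as the length these ratios were 4.54 and 51.0. *TNFRSF1A*, the gene of a TNF receptor, was not lower in this way. The ratio of *TNFRSF10B* to it was 1.07 in mean normalized value, 1.11 per kilobase of coding sequence and 0.582 per kilobase of transcript. The gene of the ligand TRAIL, *TNFSF10*, had a mean normalized value of 0.539, near the lowest value listed for any symbol (0.216).

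Divided by coding length, the 10 genes ran in the order *BAX* (4396 per kilobase), *PMAIP1*, *BCL2L1* (2183), *MCL1* (1889), *BCL2L11*, *BID*, *TNFRSF10B* (1436), *BAK1* (824), *BBC3* and *BCL2* (112). Divided by transcript length, the order was *BAX* (3185), *BCL2L1* (593), *MCL1* (502), *TNFRSF10B* (474), *BID*, *PMAIP1*, *BAK1* (240), *BCL2L11*, *BBC3* and *BCL2* (11.7). First and last places were thus shared, and 3 genes, *BAX*, *BBC3* and *BCL2*, held the same place on all scales tried. Whether neighbours in the middle of either order differ beyond the spread between samples could not be tested on pooled values. Of the 10 genes, 8 lay above the median of the 15247 matched coding genes per kilobase of coding sequence (median 327), and likewise 8 per kilobase of transcript (median 127). *BCL2* and *BBC3* were below both medians.

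**Figure D2:**
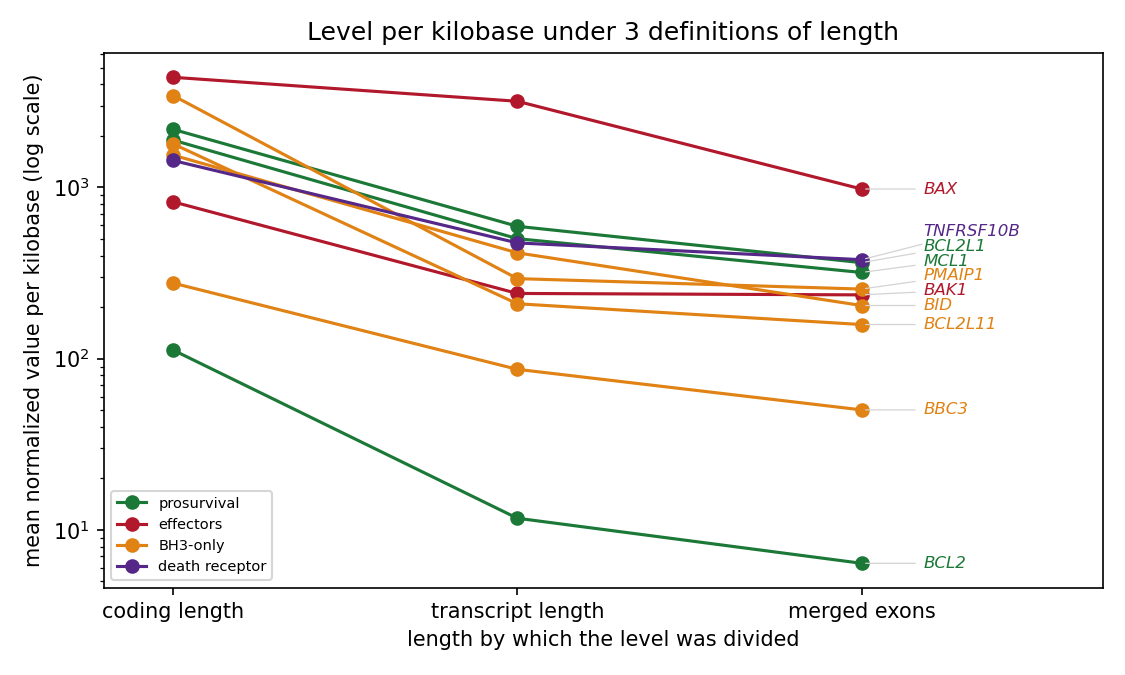
Mean normalized value per kilobase (y axis, log scale) of each of the 10 genes after division by the coding length, the transcript length or the merged exon length (x axis), with 1 line for each gene coloured by role and no error bars. *BAX* stays on top and *BCL2* at the bottom, while *PMAIP1* drops from second to sixth place between coding and transcript length.

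Summed by role per kilobase of coding sequence, the 4 BH3-only genes came to 7057, the 2 effectors to 5220 and the 3 prosurvival genes to 4184. Per kilobase of transcript the sums were 1004, 3425 and 1107, so that among these 10 genes the BH3-only sum went from highest to lowest. The order also turned on the genes summed and on the summary. With the wider lists, the sums per kilobase of transcript were 2143 for 8 BH3-only genes, 3429 for 3 effectors and 1132 for 4 prosurvival genes, and *BAD* made up 51.4% of the first. As medians per kilobase of coding sequence, the BH3-only members were lowest at 1670.3, against 1889 for the prosurvival members and 2609.8 for the effectors. Over the wider lists these medians were 954, 1023 and 824, so the effectors went from highest to lowest. *PMAIP1* supplied 48.7% of the BH3-only sum over the members on the coding scale. *BAX* supplied 84.2% of the effector sum on the coding scale and 93.0% on the transcript scale. *BCL2L1* supplied 52.2% and 53.6% of the prosurvival sum. These are sums of RNA levels and not of proteins.

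The coding parts of the 10 genes were short, from 162 bases in *PMAIP1* to 1320 in *TNFRSF10B*, all below the median of matched coding genes (1419). In 9 of 10, the coding share of the canonical transcript was below the median of all matched coding genes (50.5%), with a median of 27.0% over the 10. *BAX*, at 72.5%, was the exception. Their base composition spread widely. The GC content of the transcript ran from 36.7% in *PMAIP1*, above 4.18% of coding genes, to 69.7% in *BBC3*, above 99.4%, and 5 of the 10 lay above the median of 49.2%. The genes at these ends were measured as 557 and 160.0 in mean normalized value, and no effect of GC content on the libraries was tested.

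Other genes of the death pathway lay both within and outside the range of the 10 genes. Of the other prosurvival genes, *BCL2L2* (BCL-W) had a mean normalized value of 90.6, while *BCL2A1* and *BCL2L10* were not analysed here. The effector-like *BOK* had 9.91. The BH3-only gene *BAD* had 1024, against 1067 for *BCL2L11*. Per kilobase of transcript the values of *BAD* and *BCL2L11* were 1102 and 209, and per kilobase of coding sequence 2032 and 1796. *HRK* had 99.4, *BIK* 14.9 and *BMF* 14.9. Of 8 BH3-only genes, 8 reached a mean normalized value of 10 and 5 reached 100.
Downstream of the mitochondrion, 11 of 12 apoptosome, caspase and inhibitor genes reached 10, against 67.1% of all symbols. Of the 17035 symbols matched to the annotation, 13374 reached 10, a closer background for this list and for the death receptor list below. *CYCS*, the gene of cytochrome c, had 4507, *APAF1* 558 and *CASP9* 727. *BIRC5* (survivin), which also serves in cell division, was highest of that list at 14769.5, and *BIRC3* was lowest at 5.17. In the death receptor list, 8 of 10 listed genes reached 10, with *FADD* at 627, *CASP8* at 475 and its inhibitor *CFLAR* at 588; *TNFRSF10A* was not analysed here.
Upstream, all 8 of the ER stress regulators listed reached 100. *ATF4*, the translation-controlled factor of the integrated stress response, had 28565, and *DDIT3*, the gene of CHOP, had 349. *ERN1*, the gene of the sensor IRE1, was lowest at 281.

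**Figure D3:**
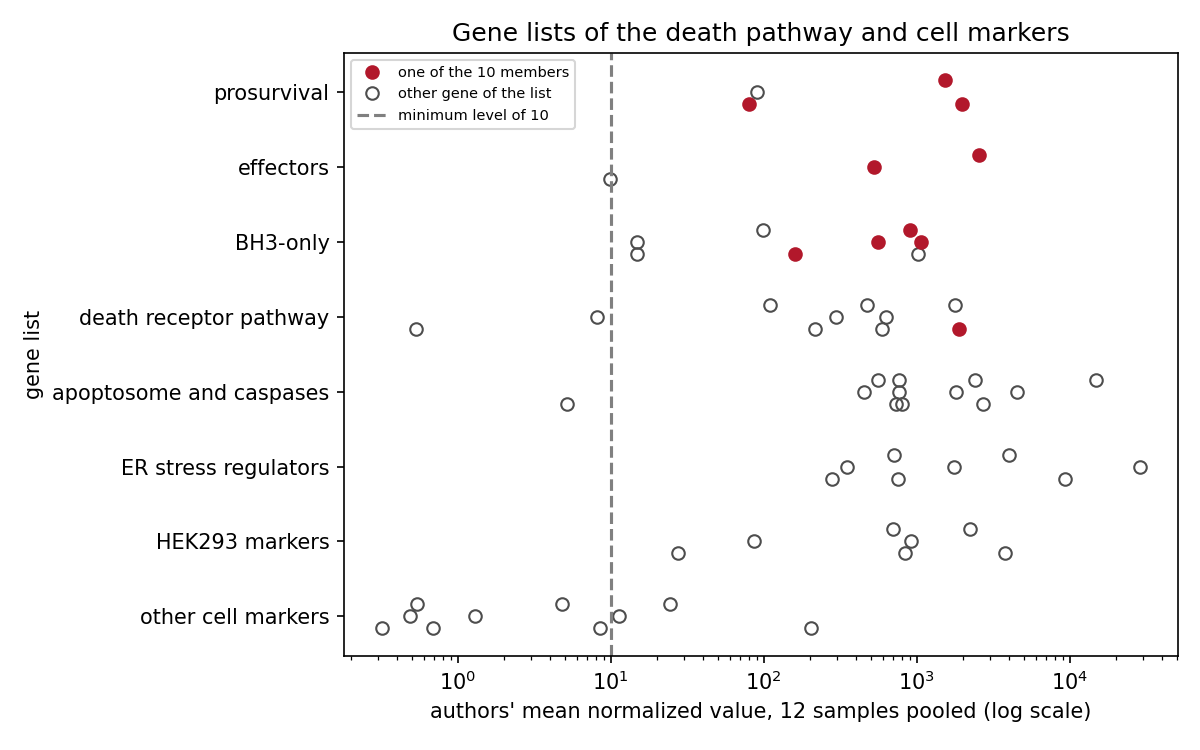
The authors' mean normalized value (x axis, log scale) of the genes of 8 lists (y axis), with 1 point for each gene, filled red for the 10 genes described here and open for the others, and the dashed line at 10. The 10 genes lie from 80.5 to 2532, and most markers of other cell types lie below the line.

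Promoters were described from RefSeq windows of 300 bases on GRCh38.p14, 250 before and 50 after each annotated start. Windows were found for 8 of the 10 genes, 13 in all, of which *BID* had 5 and *BCL2L1* had 2, so the windows of a gene overlap or share a locus. The set of windows used held none for *MCL1* and *TNFRSF10B*, although both have an annotated canonical transcript. Both strands were searched for 6 motifs. The ER stress element (its consensus ERSE-I, a CCAAT box and a CCACG box on the same strand with 9 bases of any kind between them), which ATF6 binds with NF-Y, was in 0 of 13 windows and in 0.0769% of all 35116 windows. The ATF4 site core (TGATGNAA) was in 0 of 13 and in 3.62% of all. The full cAMP response element (TGACGTCA) was in 0 of 13 and in 1.85% of all.
The core of that element (TGACGT, also contained in the full one) was in 1 of 13 windows, against 7.98% of all. That window was of *PMAIP1*, and the site began 56 bases before the start. The GC box (GGGCGG) was in 9 of 13 windows and in 45.0% of all. Those windows were of *BCL2L11*, *BAK1*, *PMAIP1*, *BAX*, *BCL2L1* and *BID*, the last with several windows that partly overlap and so are not independent. The E-box (CACGTG) was in 4 of 13 windows, those of *BAX*, *BBC3* and *BID* (in 2 overlapping windows), and in 7.26% of all. *BAX*, the gene with the highest level, held 4 of them, starting 138, 93, 45 and 14 bases before its annotated start. A match is a description of the letters and does not show that a factor binds, and the absence of one in these windows says nothing about sites elsewhere.

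The *BAX* E-boxes and the *PMAIP1* core site are shown because they are the motif with most matches in the window of the gene with the highest level, which also held 2 GC boxes, and the one match to a motif of the CREB and ATF factors. Capitals mark the motif, each stretch runs 5′ to 3′ on the plus strand of GRCh38.p14, and the core site reads as its reverse complement.
*BAX* E-box 1, chr19:48954728-48954751: ttggacagtCACGTGacgggacca
*BAX* E-box 2, chr19:48954773-48954796: aggtgcggtCACGTGacccggcgg
*BAX* E-box 3, chr19:48954821-48954844: cggggcggcCACGTGaaggacgca
*BAX* E-box 4, chr19:48954852-48954875: cggggctctCACGTGacccgggcg
*PMAIP1* core site, chr18:59899931-59899954: agtttccctACGTCAccagggaag
The last 2 *BAX* stretches lie within the gene as GENCODE 44 draws it, since its most upstream transcript starts at 48954815.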

How the data were processed

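Strand-specific mRNA libraries were made from 12 samples, 3 in each of 4 groups. Per the paper's methods, the authors aligned paired reads to GRCh38.p7 with SeqManPro, used ArrayStar with QSeq for gene values, and ran DESeq2 for each compound against vehicle (version 1.40.1 in the submitters' processing notes, which name GRCh38 and GRCh37). The deposited signal used here is the authors' mean over all samples of values divided by size factors. It was identical in the 3 tables and is taken to cover the 12 samples. The other columns hold the authors' own comparisons (log2 change, its standard error, test statistic and p), which were not used. No values per sample were used, so depth per sample, replicate spread and tests could not be had.

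The methods say that RPKM entered the fit. A sum of 36.6 M would then need a mean transcript length of 27.3 bases, against a median of 3266 in the annotation, so the signal was treated as not scaled by length. Levels were divided by the length of the canonical transcript, all MANE Select for the 10 genes, of GENCODE 44 on GRCh38. The planned RefSeq protein lengths were replaced by its coding lengths. By symbol, older ones included, 73.1% of symbols and 85.5% of those with a mean of at least 10 matched. A total of 23 symbols per table had become dates or numbers and were not used by name. Percentiles are the percent of genes with a lower value. The named genes are the 10 and those of 8 lists, chosen with earlier results of these data known. Some genes of these lists are not reported or were not analysed here. Python 3.11.15 and pandas 2.3.3 were used. The motif search was tested on simulated data with a planted E-box or CCACG box only, and not for motifs with bases of any kind in them. Alternatives were other lengths, backgrounds, minimum levels and lists.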

Additional observations from a re-analysis of the deposited data

How the results depend on the processing

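The mean normalized value of each of the 10 genes was the same in the 3 tables. Of the 10 genes, 3 kept their place in the order per kilobase of coding sequence when transcript length was used, 6 with no length scaling, and 5 with merged exons, a setting chosen after seeing the data. The median percentile of the 10 genes was 73.9 among all symbols, 61.1 among symbols with a mean of at least 10, and 80.0 among coding genes per kilobase. The sums per kilobase of coding sequence changed from 4184 to 4341 for the prosurvival genes, from 5220 to 5235 for the effectors and from 7057 to 9510 for the BH3-only genes when the wider lists were summed. Medians in place of sums gave 1889, 2609.8 and 1670.3 over the members, and 1023, 824 and 954 over the wider lists. Transcript length, also added after seeing the data, gave 1107, 3425 and 1004. At a minimum of 100 in place of 10, the number of genes fell from 4 to 2 for the prosurvival list, from 8 to 5 for the BH3-only list and from 3 to 1 for the markers of other cells, while 4 lists kept their number and the HEK293 markers fell from 7 to 5. No paired analysis was possible because the columns used carry no replicate numbers, and leaving out replicates could not be run for the same reason. The planned search for a BH3 pattern in the proteins was not run, since no protein sequences were used here.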
